A study of Arabidopsis thaliana and Nicotiana benthamiana and Solanum lycopersicum with 20 samples.

Results

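Multi-summit regions are stretches of GLK binding in Arabidopsis leaves in which the peak caller placed 3 or more summits under 1 peak name. They were chosen from the list of the first GLK1 library by counting the rows that share a peak name once its trailing letter is removed. Of 11219 regions in that list, 872 (7.77%) had 3 or more summits, 2104 had 2 and 8243 had 1. The 872 regions held 3125 of the 15576 summits (20.1%), and the 20 lists of the whole series, from Arabidopsis, tomato, tobacco, rice and maize, held 365481 regions.

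Chromatin was immunoprecipitated from leaves of Arabidopsis plants that carry the cDNA of GLK1 or of GLK2 joined to a C-terminal GFP tag. Both transgenes sit in the glk1/glk2 double mutant, so that neither group has endogenous GLK protein, and the lines used were overexpressors picked for a high level of the tagged protein. The methods describe stable transgenic plants, whereas the design text of the deposit speaks of transient expression. Each group has 2 lists, GLK1 replicates 1 and 2 and GLK2 replicates 1 and 2, and the study's reporting summary, though not the labels, describes separate plants for the replicates. The read depth of each list is not given, only a range over the Arabidopsis libraries in the study's reporting summary, no control library is named for them, and a region that falls below the caller's threshold is simply not listed.

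GOLDEN2-LIKE (GLK) proteins are GARP-family transcription factors that switch on nuclear genes for chloroplast development. Their best known targets encode the chlorophyll-binding antenna proteins (LHCA and LHCB), photosystem subunits and enzymes of chlorophyll synthesis. A summit is the point of highest read pile-up within an enriched stretch, and a caller that splits summits can place several in 1 stretch, either at separate binding sites or at smaller rises beside a large one. Column 7 of each list, the fold change of the pile-up at the summit over its local background, is the measure of strength used below.

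The 150 bp windows of 3 regions are shown first because they stand for the 3 kinds of region described here. The kinds differ in the layout and strength of their summits, and motif content varied among strong regions, as given below. In the windows below, read from the plus strand of RefSeq's TAIR10.1 sequence, capitals mark the GLK core motif RGATTYY (A or G, then GATT, then 2 bases that are each C or T) on either strand and CACGTG, the G-box bound by bZIP and PIF factors, each searched for on its own. The region between LHCB1.5 and LHCB1.4, a divergently transcribed pair of antenna genes, has a strong summit at each gene and a weak one between them (summits at chr2:14523642-14524597).
LHCB1.5 summit, chr2:14523567-14523716: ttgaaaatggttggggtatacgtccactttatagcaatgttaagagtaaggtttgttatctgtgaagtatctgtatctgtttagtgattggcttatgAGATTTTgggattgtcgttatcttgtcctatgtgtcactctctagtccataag
middle summit, chr2:14523963-14524112: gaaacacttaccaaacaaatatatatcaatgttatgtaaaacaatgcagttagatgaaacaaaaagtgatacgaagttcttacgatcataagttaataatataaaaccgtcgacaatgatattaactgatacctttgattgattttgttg
LHCB1.4 summit, chr2:14524522-14524671: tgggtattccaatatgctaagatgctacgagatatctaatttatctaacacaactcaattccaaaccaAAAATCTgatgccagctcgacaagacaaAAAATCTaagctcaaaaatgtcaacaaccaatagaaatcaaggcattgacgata

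The LHCB1.5 window held 1 match to RGATTYY, the LHCB1.4 window held 2 on the other strand, and the middle window held none. The region at CAO, which encodes the enzyme that makes chlorophyll b, has its highest summit 83 bp upstream of the start site and 2 weak summits inside the gene (summits at chr1:16850526-16851354).
CAO weakest summit, chr1:16850617-16850766: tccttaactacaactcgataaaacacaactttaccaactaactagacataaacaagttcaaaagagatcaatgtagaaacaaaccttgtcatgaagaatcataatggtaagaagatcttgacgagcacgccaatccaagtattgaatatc
CAO second summit, chr1:16850451-16850600: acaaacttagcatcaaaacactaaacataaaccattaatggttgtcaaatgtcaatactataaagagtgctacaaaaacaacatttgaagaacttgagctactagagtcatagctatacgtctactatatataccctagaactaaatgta
CAO highest summit, chr1:16851279-16851428: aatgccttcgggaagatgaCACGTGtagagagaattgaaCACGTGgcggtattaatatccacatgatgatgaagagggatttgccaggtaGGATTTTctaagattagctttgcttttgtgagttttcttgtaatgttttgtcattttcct

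Only the highest of the 3 CAO windows held a match, with 1 RGATTYY and 2 CACGTG. The third kind is a run of weak summits on chromosome 2 in sequence that the mitochondrial genome also carries. The windows of the highest and the second highest of its 14 summits matched the mitochondrial genome over 150 bp at 100% and 99.3% identity.
highest summit, chr2:3292263-3292412: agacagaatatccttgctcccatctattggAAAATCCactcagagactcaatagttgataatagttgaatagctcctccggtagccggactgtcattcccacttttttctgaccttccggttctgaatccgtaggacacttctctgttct
second highest summit, chr2:3294256-3294405: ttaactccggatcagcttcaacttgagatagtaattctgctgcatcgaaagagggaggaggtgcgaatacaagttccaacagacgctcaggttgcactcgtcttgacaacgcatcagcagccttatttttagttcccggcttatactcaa

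A match to a motif in these windows is a description of the letters only. Over all 15576 windows of the list, 26.1% held RGATTYY and 12.1% held CACGTG.

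Most of the 872 regions had just 3 summits. There were 574 regions with 3 summits, 191 with 4, 59 with 5, 25 with 6, 10 with 7, 6 with 8, 2 with 9, 2 with 10, and 1 each with 11, 13 and 14. Neighbouring summits lay a median of 261 bp apart (quartiles 183 and 377 bp, 2253 spacings), and 313 spacings (13.9%) were at most 149 bp, so that the 150 bp windows overlapped. The whole run from first to last summit was 640 bp long in the median region and ranged from 146 to 4479 bp. In regions with 2 summits the median spacing was 230 bp.

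The same rule gave 845 regions in GLK1 replicate 2 (8.64% of its regions), 1710 in GLK2 replicate 1 (11.4%) and 1728 in GLK2 replicate 2 (12%). The GLK2 lists were also longer, with 22900 and 22143 summits against 15576 and 13934 in the GLK1 lists, and how depth bears on either number was not tested. Median spacings were 292, 279 and 292 bp in these 3 lists, close to the 261 bp of GLK1 replicate 1.

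**Figure D1:**
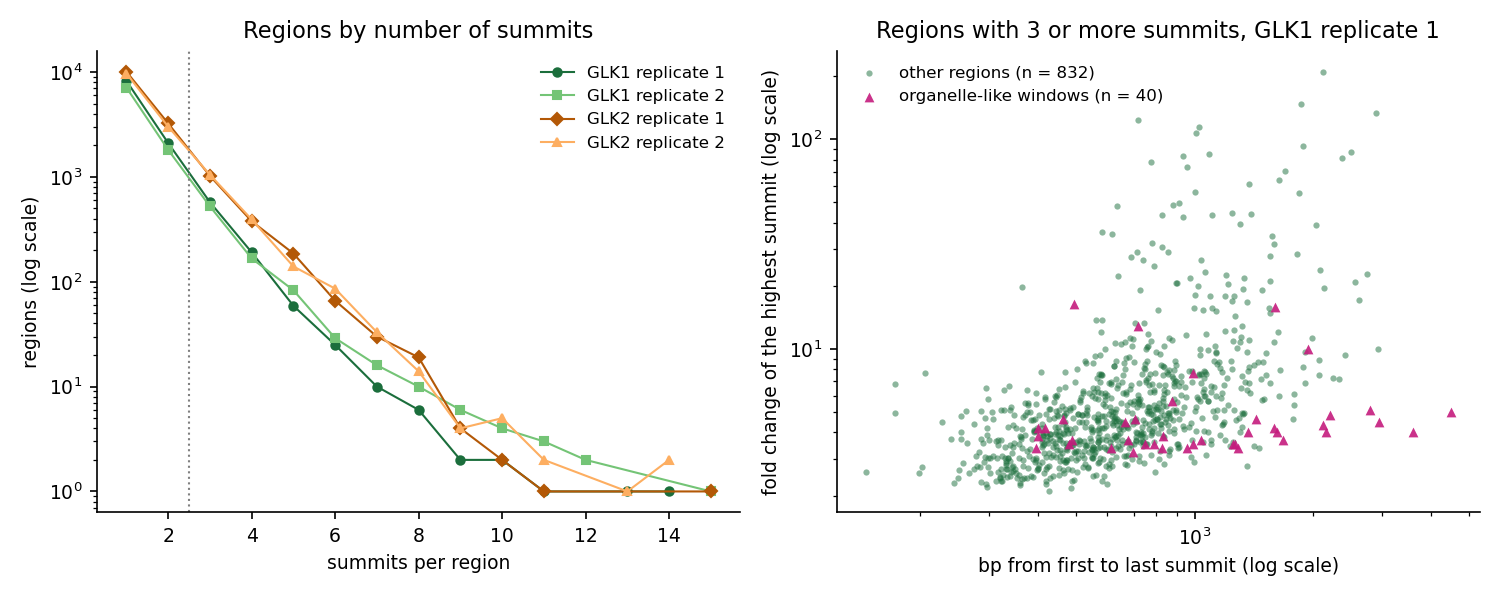
Left, number of regions (log scale) against summits per region in the 4 Arabidopsis lists, with a dotted line at the rule (3 or more summits). Right, fold change of the highest summit against the distance from first to last summit (both log scales) for the 872 regions of GLK1 replicate 1, where triangles mark the 40 regions whose windows match an organelle genome and circles the other 832. The longest run of summits, 4479 bp, was an organelle-like one of low fold change. Runs of 2937 and 2893 bp, with fold changes of 9.96 and 134.0, were among the other 832, as were all regions with fold changes above 20.

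The highest summit of a multi-summit region was stronger than its other summits by a modest margin in most regions and by a large one in a few. In GLK1 replicate 1, whose values the rule shares, the median fold change was 4.63 at the highest summit of the 872 regions, 2.95 at their 2253 other summits, 3.64 at the highest of 2 summits and 2.95 at single summits. Regions with exactly 3 summits, just inside the rule, had a median of 4.22 at the highest summit, and regions with exactly 2, just outside it, had 3.64. The median was 5.11 with 4 summits, 5.66 with 5 and 5.55 in the 48 regions with 6 or more. The highest summit is by definition the largest value of its region, and the largest of more values tends to be higher. These medians thus compare a largest of several values with single values, and how much of the rise this makes was not tested. The highest summit exceeded the second highest by a median ratio of 1.25. The ratio was under 1.2 in 378 regions (43.3%) and at least 2 in 136 (15.6%), up to 27.0 at COL16. The highest summit stood at either end of the run in 527 regions (60.4%), where end summits made up 59.1% of the summits of a region on average.

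The summits were then looked for in the 3 lists that the rule did not use. A summit was counted as recurring when another list had a summit within 149 bp, and the stretches within that distance of a summit covered 3.30% of the chromosomes for GLK1 replicate 2, 5.36% for GLK2 replicate 1 and 5.21% for GLK2 replicate 2. Matching was not 1 to 1, so 1 summit of another list could count for neighbouring summits of the same region. In GLK1 replicate 2 the highest summit recurred in 774 of 872 multi-summit regions (88.8%), against 5485 of 8243 single-summit regions (66.5%) and 71.4% of all regions. In GLK2 replicate 1 it recurred in 792 multi-summit regions (90.8%), against 6822 single-summit regions (82.8%) and 84.7% of all. In GLK2 replicate 2 it recurred in 789 multi-summit regions (90.5%), against 6689 single-summit regions (81.1%) and 83.3% of all. Regions with 2 summits were near to those with exactly 3, so high recurrence was not particular to multi-summit regions. The shares with 2 summits were 83.4%, 89.97% and 88.5% in the 3 lists, against 87.1%, 90.1% and 89.9% with exactly 3. Between multi-summit and single-summit regions the difference was 22.2 percentage points in GLK1 replicate 2 (95% Newcombe interval 19.7 to 24.4). It was 8.06 points in GLK2 replicate 1 (5.82 to 9.99) and 9.33 points in GLK2 replicate 2 (7.05 to 11.3). With the rule applied to GLK1 replicate 2, and GLK1 replicate 1 searched in its place, the differences were 13.5, 7.58 and 4.21 points. These intervals, and all those below, cover counting error over regions of 1 pair of lists and not the spread between plants.

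Most of this difference went with the strength of the summit. When multi-summit and single-summit regions were compared within 5 bins of the GLK1 replicate 1 fold change, the difference was 2.29 points in GLK1 replicate 2 (0.21 to 4.37), −2.07 points in GLK2 replicate 1 (−4.00 to −0.15) and −1.57 points in GLK2 replicate 2 (−3.53 to 0.40). In the weakest bin the highest summit recurred in GLK1 replicate 2 in 72.6% of 175 multi-summit regions, against 49.5% of 5103 single-summit regions, whose median fold change within the bin was 2.86 and 2.53. In the 4 stronger bins single summits recurred at a higher share in every list, though the intervals overlapped in some bins. In the third bin the highest summit recurred in GLK2 replicate 1 in 89.7% of 174 multi-summit regions (84.2 to 93.4%), against 97.9% of 805 single-summit regions (96.6 to 98.7%).

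**Figure D2:**
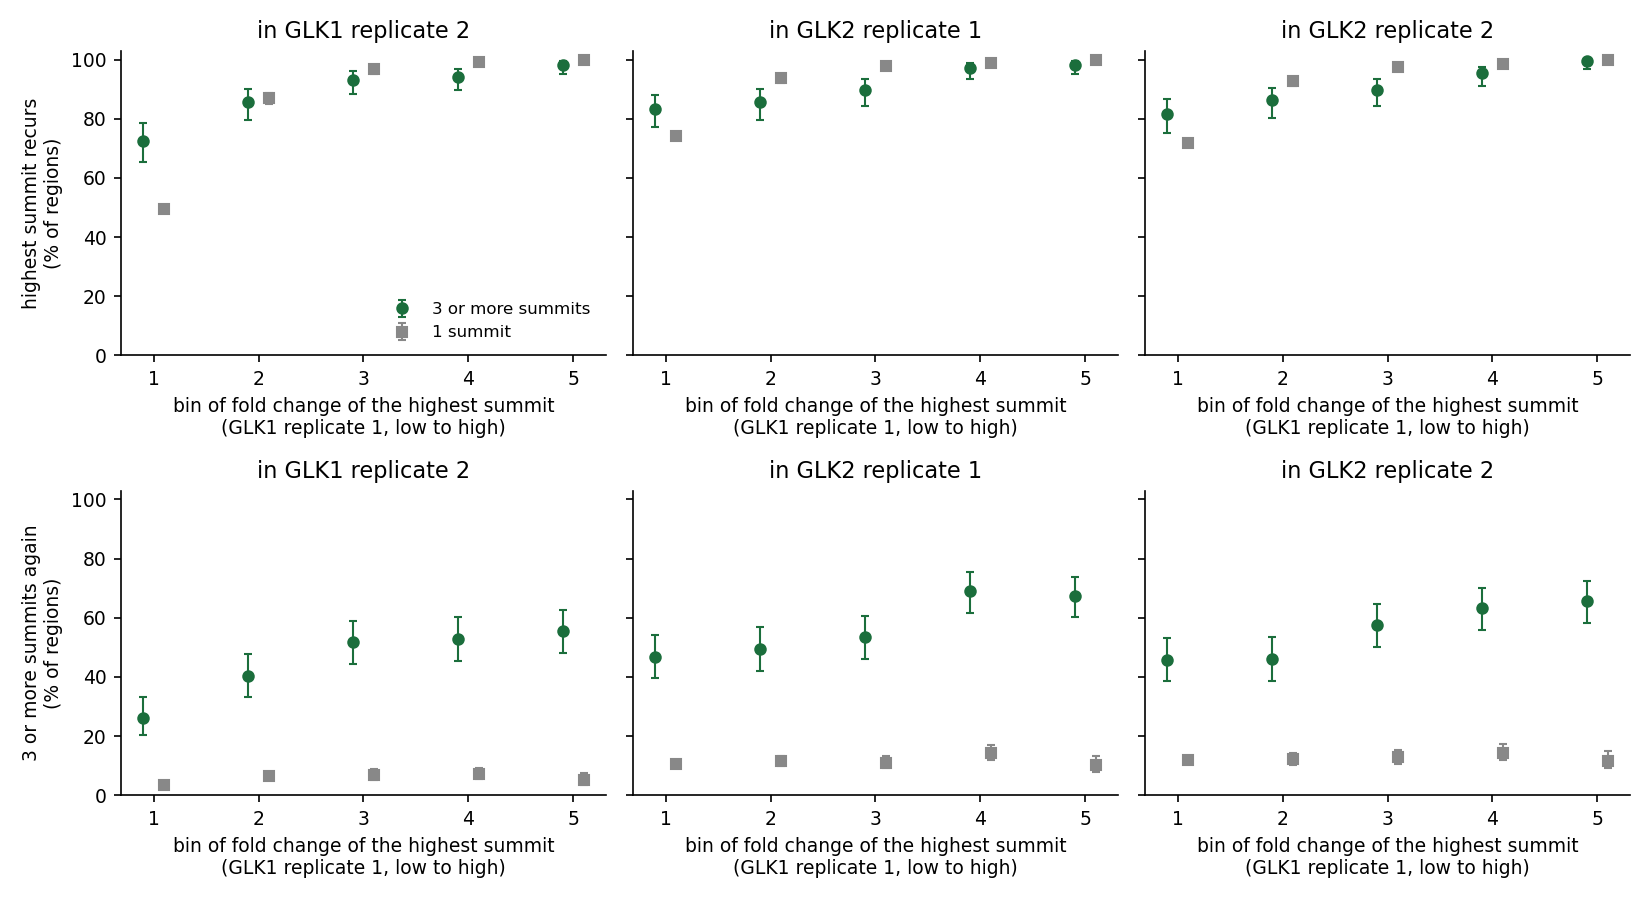
Share of regions (%) whose highest summit recurs (top) and that again had 3 or more summits (bottom) in each of the 3 lists not used by the rule, over 5 bins of the fold change of the highest summit in GLK1 replicate 1, from low to high. Circles are multi-summit regions, squares single-summit regions, bars 95% Wilson intervals. From the second bin on single-summit regions reach or pass multi-summit regions in the top panels, while the bottom shares stay apart in every bin, 55.4% against 5.13% in the strongest bin of GLK1 replicate 2.

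Having several summits was itself found again. The region that held the matching summit had 3 or more summits in GLK1 replicate 2 for 395 multi-summit regions (45.3%), against 389 single-summit regions (4.72%) and 9.68% of all regions. The shares were 57.2% (499 regions) against 11.1% (911 regions) in GLK2 replicate 1, where 17% of all regions were so matched, and 55.6% (485 regions) against 12.2% (1006 regions) in GLK2 replicate 2, where 17.9% were. The differences, 40.6 points in GLK1 replicate 2 (37.3 to 43.9), 46.2 points in GLK2 replicate 1 (42.8 to 49.5) and 43.4 points in GLK2 replicate 2 (40.0 to 46.8), moved little with strength. Within the fold change bins they were 39.5, 45.7 and 43.0 points.

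The share was higher in regions with 4 or 5 summits than in regions with 3. In GLK1 replicate 2 it was 34.8% of regions with 3 summits, 58.6% with 4, 76.3% with 5 and 79.2% with 6 or more, against 14.4% of regions with 2. In GLK2 replicate 1 the corresponding shares were 48.3%, 68.1%, 88.1% and 83.3%, against 23.9% with 2. In GLK2 replicate 2 they were 46.3%, 70.7%, 83.1% and 72.9%, against 24.3% with 2. With 6 or more summits the share was thus below that with 5 in both GLK2 lists, but the intervals of the last 2 classes overlapped in every list.

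**Figure D3:**
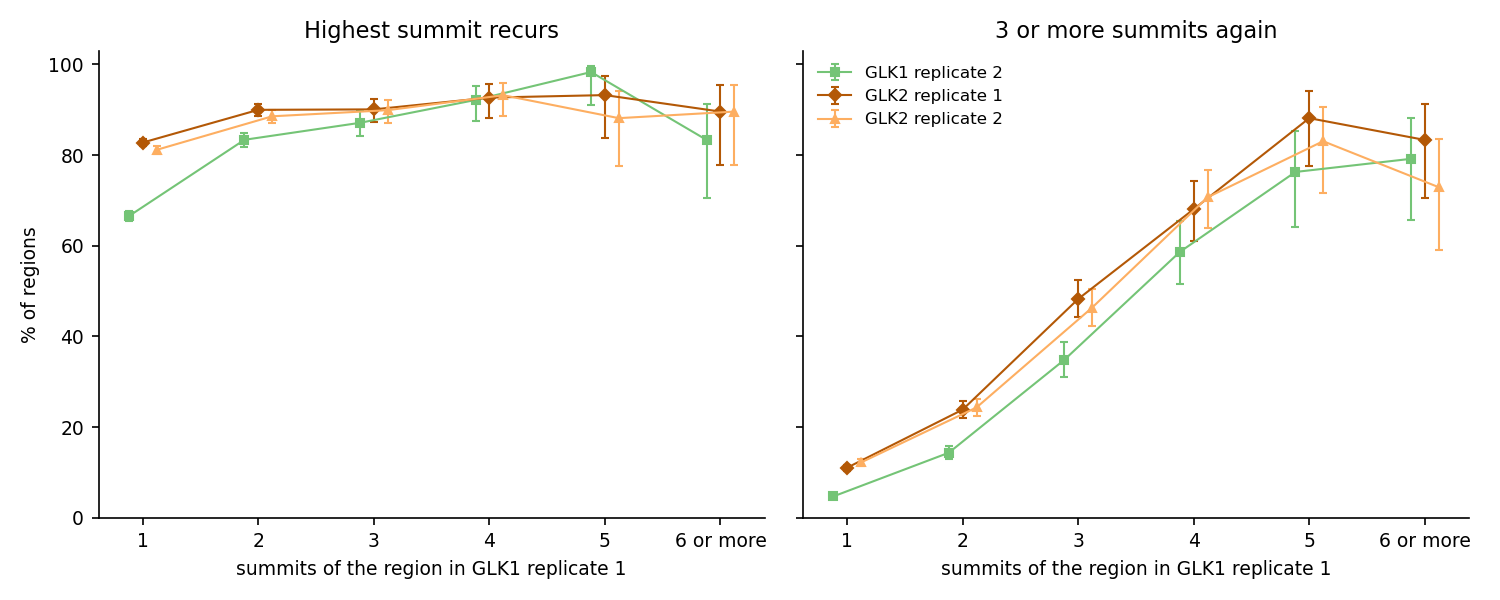
Share of regions (%) whose highest summit recurs (left) and that again had 3 or more summits (right) in the 3 other lists, against the number of summits in GLK1 replicate 1. Points are shares, bars 95% Wilson intervals, and points are shifted sideways for clarity. The left share lies between 83.3% and 98.3% from 3 summits on in the 3 lists, and with 2 summits between 83.4% and 89.97%. The right share in GLK1 replicate 2 is 34.8% with 3 summits and 79.2% with 6 or more.

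The other summits of a multi-summit region recurred less often than its highest. Of the 2253 other summits, 60.8% recurred in GLK1 replicate 2, 69.2% in GLK2 replicate 1 and 66.3% in GLK2 replicate 2, where 67.9%, 80.1% and 78.2% of all summits of the list did. The second highest summit recurred in 71.1%, 79.0% and 75.7% of regions and the lowest in 47.9%, 60.3% and 56.3%. Where they recurred, the highest summits had median fold changes of 3.98, 4.17 and 4.05 in the 3 lists, against 2.97, 3.06 and 2.95 at single summits, and the other summits had 3.07, 3.14 and 3.05. The highest summit was found in all 3 lists for 680 multi-summit regions (78.0%), against 4889 single-summit regions (59.3%), but every summit of the region was found in all 3 lists for only 74 (8.49%).

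Where 1 summit dominated, the same summit was nearly always the highest in the other lists. The order of the lesser summits was not compared. In multi-summit regions with a summit in the same stretch of another list, the highest there was assigned to the nearest summit of the region. The distance limit used for recurrence was not applied, so this is a looser match. By it the same summit was the highest in 65.9% in GLK1 replicate 2, 64.0% in GLK2 replicate 1 and 62.7% in GLK2 replicate 2. With a ratio of at least 2 the same summit was highest in 136, 134 and 135 of 136 regions. With a ratio under 1.2 the shares were 46.2%, 44.1% and 46.1%, in regions of at least 3 summits. The lesser summits of the regions with a ratio of at least 2 recurred in 49.0%, 62.0% and 58.0% of 355 cases, against 65.1%, 70.9% and 70.1% of 1010 lesser summits in regions with a ratio under 1.2.

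**Figure D4:**
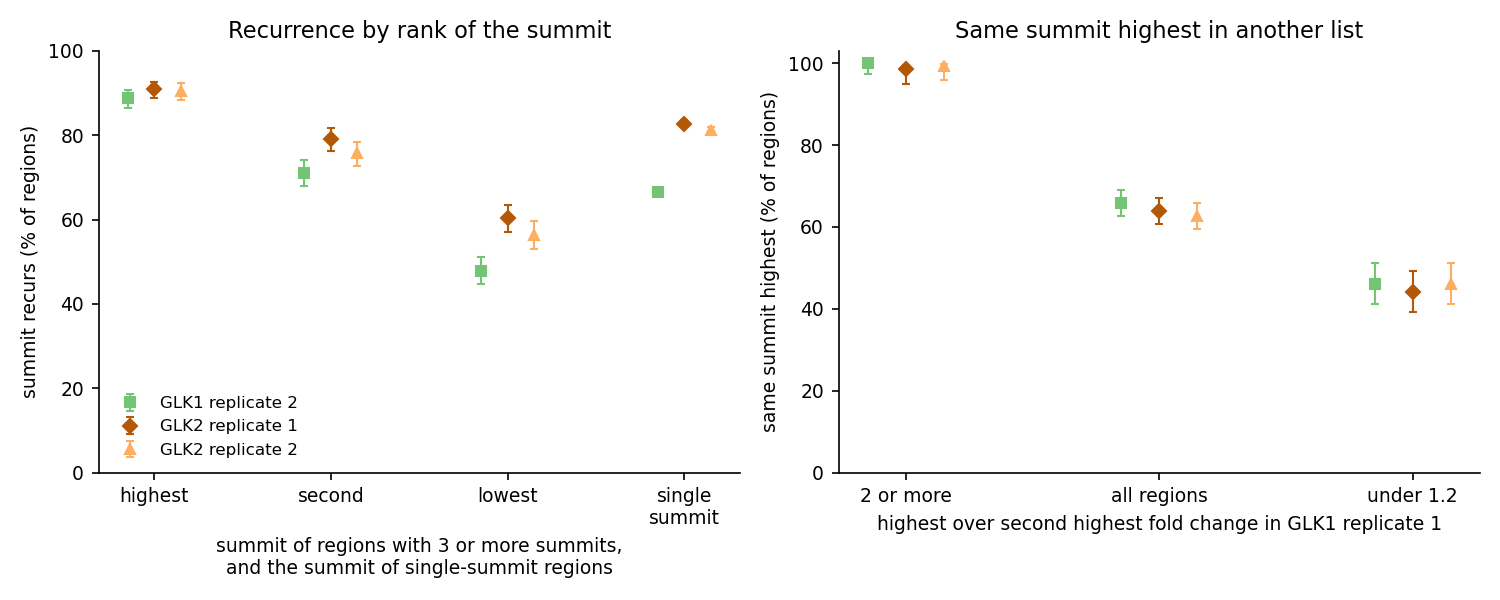
Left, share (%) of the highest, the second highest and the lowest summit of the 872 multi-summit regions that recur in the other lists, beside the summits of 8243 single-summit regions. Right, share (%) of multi-summit regions in which the same summit was highest in another list, by the ratio of the highest to the second highest fold change in GLK1 replicate 1, bars being 95% Wilson intervals in both panels. The same summit means the one nearest to the highest of the other list, at any distance within the stretch. A summit at least 2 times as high as the next was highest again in 98.5% or more of regions, and one less than 1.2 times as high in 44.1 to 46.2%.

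The strongest multi-summit region, with summits at chr1:10475702-10477828, lies between LHCB1.3 (AT1G29930) and LHCB1.1 (AT1G29920), 2 antenna genes of nearly identical coding sequence that point away from each other. Its highest summit, 57 bp upstream of LHCB1.3, had fold changes of 210.2 and 181.4 in the GLK1 lists and 93.6 and 88.6 in the GLK2 lists. The summit 113 bp upstream of LHCB1.1 had fold changes of 26.9 and 22.8 in the GLK1 lists and 24.8 and 25.2 in the GLK2 lists. Both summits thus recurred in every list within 6 bp, whereas the weak summit in the LHCB1.1 coding exon, at 4.54, was in no other list. Its window has 3 other nuclear matches of at least 100 bp, whose part in the value was not tested. The LHCB1.3 window, the highest of the region, held no RGATTYY, and the LHCB1.1 window held 2 matches. The pair LHCB1.5 (AT2G34420) and LHCB1.4 (AT2G34430), whose windows are printed above, had the same layout of summits but a motif at the highest one. The LHCB1.4 summit had fold changes of 73.8 and 56.0 in the GLK1 lists and 44.4 and 38.7 in the GLK2 lists. The LHCB1.5 summit, 955 bp away, had fold changes of 32.5 and 24.3 in the GLK1 lists and 32.9 and 30.7 in the GLK2 lists. By the gene assignment described below, both genes were assigned to the LHCB1.4 summit and none to the LHCB1.5 summit. In both pairs the GLK1 lists separated the stronger from the weaker summit by a wider margin than the GLK2 lists did, which was not tested.

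PSAL and PSAE1, which encode subunits of photosystem I, each had 1 dominant summit near the start site. The highest summit of PSAL (AT4G12800) lay 90 bp inside the gene and had fold changes of 147.0 and 132.7 in the GLK1 lists and 77.8 and 80.9 in the GLK2 lists. Its 4 other summits, between 655 bp before and 1206 bp after the highest, had fold changes of 2.49 to 6.02. All 4 recurred in GLK2 replicate 2, but 1 in GLK1 replicate 2. The highest summit of PSAE1 (AT4G28750), 49 bp inside the gene, had fold changes of 82.9 and 67.2 in the GLK1 lists and 59.0 and 55.7 in the GLK2 lists. A lesser PSAE1 summit 282 bp away had a fold change of 14.2 and no counterpart in any other list.

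CHLH, which encodes the magnesium chelatase subunit also known as GUN5, and CAO represent chlorophyll synthesis among these regions. The CHLH (AT5G13630) summit 58 bp inside the gene had fold changes of 77.9 and 65.1 in the GLK1 lists and 47.1 and 44.9 in the GLK2 lists. By the gene assignment described below, this summit was shared with PDAT (AT5G13640). The CAO (AT1G44446) summit had 43.8 and 43.5 in the GLK1 lists and 33.1 and 34.3 in the GLK2 lists. The lesser summits of both genes lay in the transcribed part, at fold changes of 2.64 to 4.37, and of these 4 summits 2 recurred in GLK1 replicate 2, at 2.23 and 2.31, and 1 in a GLK2 list, at 2.07.

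**Figure D5:**
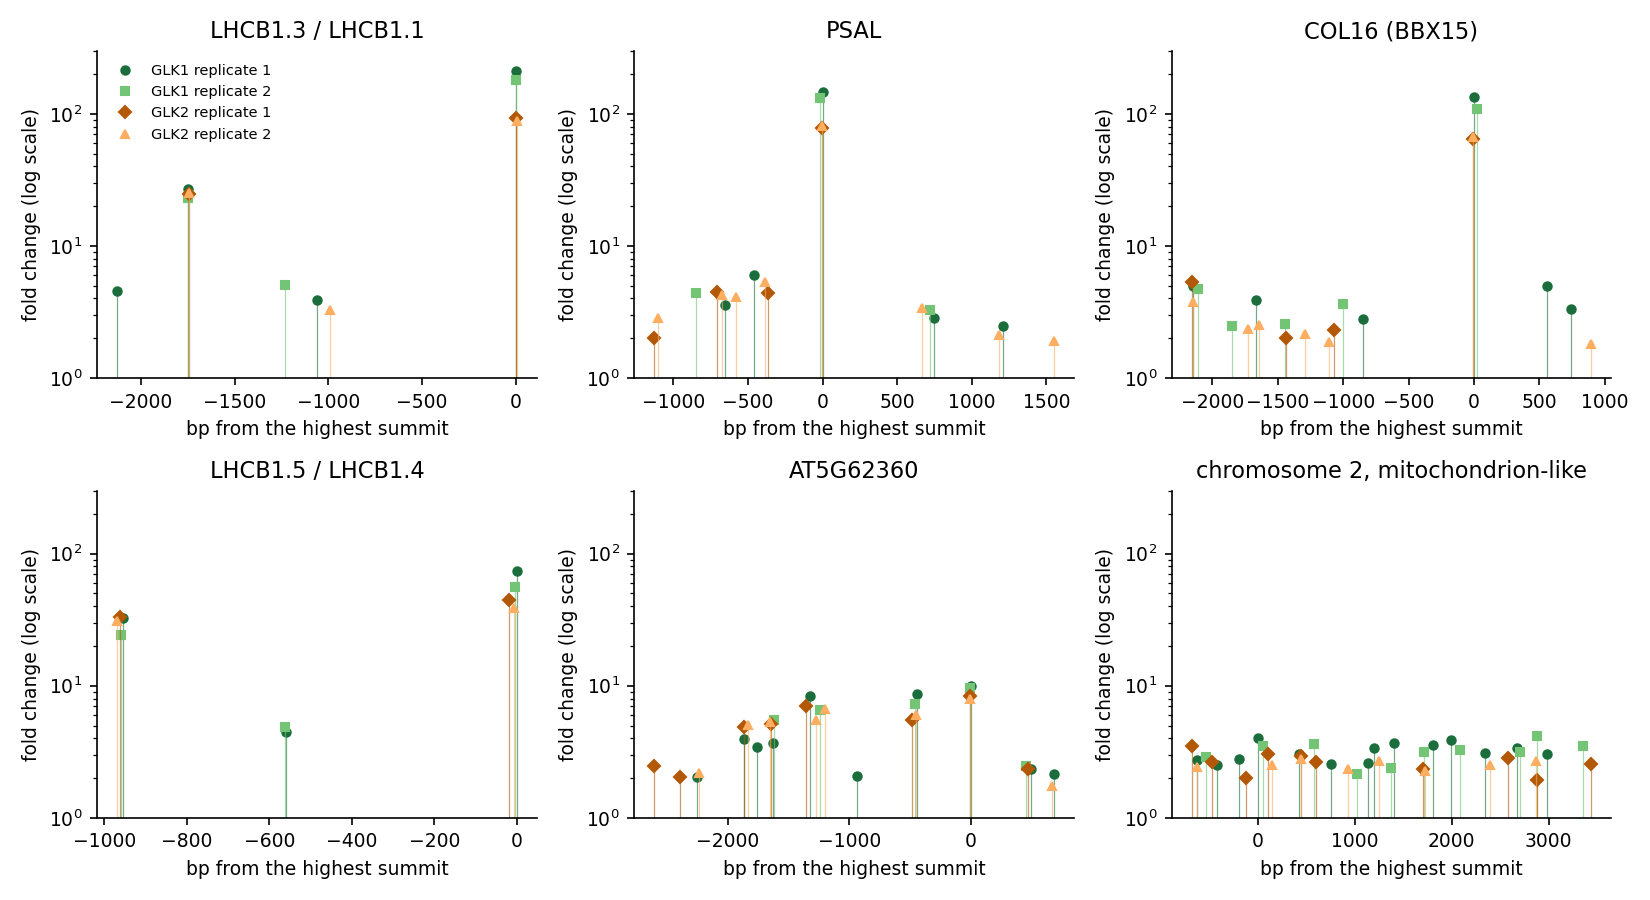
Fold change (log scale) of every summit in the 4 lists against its distance in bp from the highest summit of GLK1 replicate 1, in 6 multi-summit regions. Both antenna gene pairs show a strong summit at each gene, PSAL and COL16 show 1 dominant summit among weak ones, AT5G62360 shows 3 summits of like height, 9.96, 8.73 and 8.37 in GLK1 replicate 1, and the mitochondrion-like region shows 14 summits at 2.52 to 4.02.

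Several B-box transcription factors, zinc-finger proteins related to CONSTANS that act in light signalling and flowering, had multi-summit regions. The region of COL16 (BBX15, AT1G25440) had 6 summits over 2893 bp, running across the whole gene. Its highest summit, 7 bp inside the gene, had fold changes of 134.0 and 109.4 in the GLK1 lists and 64.9 and 66.5 in the GLK2 lists, and its next had 4.95. COL7 (BBX16, AT1G73870) had 3 summits, the highest 582 bp upstream with fold changes of 106.8 and 93.6 in the GLK1 lists and 52.7 and 47.9 in the GLK2 lists. COL6 (BBX14, AT1G68520) had 5 summits, the highest 136 bp upstream with 92.6 and 86.6 in the GLK1 lists and 44.2 and 43.0 in the GLK2 lists. COL3 (AT2G24790) had 61.2 and 51.1 in the GLK1 lists and 31.7 and 29.1 in the GLK2 lists. COL2 (AT3G02380) differed from these in that its fold changes overlapped between the groups, at 19.8 and 15.3 in the GLK1 lists and 19.1 and 20.8 in the GLK2 lists. By the gene assignment described below, the highest summit of COL7 was shared with AT1G73860 and that of COL3 with AT2G24780. The highest summit of COL2 was shared with AT3G02390 and AT3G02400.

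Genes of light perception and its signalling were also among them. The region of CRY1 (AT4G08920), a blue-light receptor, had its highest summit 548 bp upstream, with fold changes of 123.9 and 113.1 in the GLK1 lists and 59.7 and 49.6 in the GLK2 lists. A summit 190 bp further upstream had 37.6 in GLK1 replicate 1 and 18.1 and 18.5 in the GLK2 lists, and was not called separately in GLK1 replicate 2. PIF5 (AT3G59060), a phytochrome-interacting factor, had its highest summit 222 bp inside the gene, with 39.3 and 28.8 in the GLK1 lists and 22.3 and 23.6 in the GLK2 lists. PHYB (AT2G18790), a red-light receptor, had a weaker summit 205 bp upstream, with 9.38 and 5.77 in the GLK1 lists and 5.91 and 6.52 in the GLK2 lists. By the gene assignment described below, this summit was shared with AT2G18780. The 2 lesser summits of PHYB, at 2.73 and 2.28, were in no other list.

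The remaining regions of the 10 strongest belong to none of the pathway lists. The region near FAO3 (AT3G23410), named for a fatty alcohol oxidase, had 7 summits over 2494 bp, the last of them 62 bp inside the gene. Its highest summit lay 1492 bp upstream of the start. None of its summits was assigned a gene in the gene table described below, and FAO3 is the gene with the start site nearest to the highest. That summit had fold changes of 86.6 and 71.7 in the GLK1 lists and 68.7 and 72.9 in the GLK2 lists, so that the groups overlapped. The summit 27 bp inside AT1G10657 had 115.0 and 85.8 in the GLK1 lists and 61.1 and 57.5 in the GLK2 lists. The summit 395 bp upstream of AT2G15960, next to the transfer RNA gene AT2G15950, had 85.0 and 66.8 in the GLK1 lists and 52.4 and 51.4 in the GLK2 lists. In all 10 regions the highest summit recurred in every list, but of their 33 other summits 10 recurred in GLK1 replicate 2, 15 in GLK2 replicate 1 and 21 in GLK2 replicate 2. The highest windows of AT1G10657, COL7 and COL6 held 1 RGATTYY match each, and those of the other regions among the 10 held none. Some weak summits held the motif, such as that of PSAL at 2.49, while others held none.

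The 5 regions with the most summits were of another kind. AT5G62360, annotated as a member of the family of invertase and pectin methylesterase inhibitors, had 10 summits over 2937 bp, of which the highest, 255 bp upstream, had fold changes of 9.96 and 9.64 in the GLK1 lists and 8.42 and 7.97 in the GLK2 lists. Of its 10 summits, 6 recurred in GLK1 replicate 2 and 8 in each GLK2 list. In each of these lists 1 summit, at 5.51, 4.89 and 5.06, counted for neighbouring summits of the region. The other 4 regions, with 14, 13, 11 and 10 summits, all lay on chromosome 2 between positions 3252070 and 3343895, in the sequence described next, and their highest fold changes were 4.02, 4.98, 4.82 and 3.70.

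A share of the multi-summit regions lies in nuclear DNA that is a copy of organelle DNA. Arabidopsis chromosome 2 carries a large insertion of mitochondrial DNA near its centromere, and reads from it and from the mitochondrion itself can be alike. Windows of 40 multi-summit regions (4.59%) matched the mitochondrial or the chloroplast genome over at least 100 bp at 90% identity or more, against 53 single-summit regions (0.643%) and 1.08% of all regions. The mitochondrion-like ones numbered 37, all of them between 3247409 and 3496374 on chromosome 2, and 5 regions were chloroplast-like. All 218 windows of the 40 regions matched, with a median identity of 100% over a median of 150 bp. Of the 7 regions with 9 or more summits, 6 were among them.

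The 249 kb of the mitochondrion-like stretch held 1.18 summits per kb in GLK1 replicate 1, against 0.131 over the 5 chromosomes. In the other lists the stretch held 1.03 summits per kb in GLK1 replicate 2, 0.775 in GLK2 replicate 1 and 0.763 in GLK2 replicate 2, against 0.117, 0.192 and 0.186 over the chromosomes. The highest summits of the 40 regions had a median fold change of 4.02 and reached 16.4, against a median of 4.66 in the other 832 multi-summit regions. Their highest summits recurred in 82.5% in GLK1 replicate 2, 65% in GLK2 replicate 1 and 67.5% in GLK2 replicate 2, against 89.1%, 92.1% and 91.6% for the other 832. Their windows held RGATTYY in 18.3% and CACGTG in 0.917%, against 24.3% and 8.81% of windows in the other 832. How much of this signal comes from organelle reads was not tested.

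The share of highest summits upstream of genes differed by less than the counting error. The highest summit lay within 1.5 kb upstream of a protein-coding gene in 438 multi-summit regions (50.2%), against 4127 single-summit regions (50.1%) and 50.9% of all regions, a difference of 0.16 points (−3.32 to 3.64). With 500 bp downstream of the start added, the difference was −4.48 points (−7.90 to −1.15). The other summits of multi-summit regions lay there in 47.9%, where 50.7% of all summits of the list did. The median distance from the highest summit to the nearest start site was 854 bp, against 567 bp at single summits. The highest summit lay between genes in 68.8%, against 60.1% of single summits and 61.8% of all regions. It lay in the non-coding part of an exon in 16.7%, against 24.5% and 23.2%. Regions with 2 summits lay in between on these measures, at 670 bp, 65.6% and 21.1%, so the traits were not particular to multi-summit regions. They were not compared within the fold change bins. In 235 multi-summit regions (26.9%) a start site lay between the first and the last summit, and 10 regions enclosed start sites on both strands. The highest summit was the one nearest to a start site in 304 regions (34.9%), the second highest in 241 (27.6%).

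The GLK core motif differed between the groups by less than the counting error, a call that changed with the regions counted. RGATTYY was in 263 of their 872 highest windows (30.2%), against 2254 single-summit windows (27.3%) and 27.8% of all highest windows, a difference of 2.82 points (−0.29 to 6.09), and within the fold change bins the difference was −3.01 points (−6.31 to 0.30). It was 5.54 points (0.36 to 11.1) for regions with 4 or more summits, 3.26 points (0.07 to 6.62) without the organelle-like regions described above, and −0.23 points (−3.43 to 3.13) with the rule applied to GLK1 replicate 2. In both kinds of region the motif went with strength, from 21.7% in the weakest to 48% in the strongest bin of multi-summit regions and from 23.4% to 46.6% in single-summit regions. The other summits of multi-summit regions held it in 21.5%, below the 26.1% of all windows. At least 1 window held it in 532 regions (61.0%), every window in 10, and 250 regions (28.7%) held neither RGATTYY nor CACGTG in any window.

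CACGTG was less frequent at the highest summit of multi-summit regions than at single summits. Regions with 2 summits also held it less often, in 233 of 2104 highest windows (11.1%), so the lower share was not particular to multi-summit regions. It was in 106 highest windows (12.2%), against 1229 single-summit windows (14.9%) and 14% of all highest windows, a difference of −2.75 points (−4.91 to −0.30). Within the fold change bins the difference was −6.89 points (−9.37 to −4.42), and multi-summit regions held it less often in each of the 5 bins, with 18.9% against 27.1% in the strongest. The other summits of multi-summit regions held it in 6.75%.

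Genes were assigned by the summit names of the gene table that accompanies the data, of which a shortened copy with 798 genes was used here. The copy is ordered by signal and lacks the weakest rows of the full table, so it favours strong summits, and a gene without an assignment here may stand in those rows. Of the 872 multi-summit regions, 123 (14.1%) carried 170 of these genes, against 316 single-summit regions (3.83%) with 407 genes and 5.49% of all regions. In the strongest bin of fold change the shares were 57.1% of multi-summit and 58.3% of single-summit regions (intervals 49.7 to 64.2% and 53.9 to 62.6%). In the next bin they were 9.77% of multi-summit (6.19 to 15.1%) and 4.66% of single-summit regions (3.32 to 6.50%). Regions with 2 summits were like multi-summit ones in both bins, at 59.0% in the strongest and 11.1% (7.98 to 15.3%) in the next. In the 3 weaker bins 4, 1 and 1 multi-summit regions carried a gene, as did 10, 4 and 0 regions with 2 summits, and 0 single-summit regions. The gene was assigned to the highest summit for 140 of the 170 genes (82.4%), and 40 of the 123 regions carried 2 or more genes. Of the 40 organelle-like regions 2 (5%) carried a gene, near the 5.49% of all regions.

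Of the 141 genes of 7 pathway lists, 72 were in that shortened copy, 16 at multi-summit regions, 22 at regions with 2 summits and 34 at single-summit regions. The antenna list had 4 of its 17 assigned genes at multi-summit regions, photosystem I subunits 2 of 13, photosystem II subunits 0 of 11, chlorophyll synthesis 2 of 11, B-box and CONSTANS-like factors 5 of 11, light signalling 3 of 6 and the circadian clock 0 of 3. Together 16 of 72 list genes (22.2%) were at multi-summit regions, close to the 170 of 798 (21.3%) over all assigned genes. All 16 are described above, and no list was tested against another.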

How the data were processed

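Chromatin immunoprecipitation with anti-GFP antibody was followed by on-bead Tn5 tagging and paired-end sequencing. Reads were trimmed at the 3′ end and aligned to TAIR10 with Bowtie 2 (version 2.3.2). Unmapped reads, reads of low mapping quality and duplicates were removed with SAMtools, and summits were called with MACS2 (version 2.2.1). The deposited lists hold 1 row of 150 bp per summit, with a fold change (ratio over local background) and −log10 p and −log10 q values as the authors' caller wrote them. The caller can split 1 broad enrichment into several summits, so their number depends on its smoothing and on depth, which is not given per list. Lists were called per library. Column 7 and positions were used here. Windows were compared with RefSeq's TAIR10.1 chromosomes, whose ends enclose every window, and with its organelle genomes by blastn 2.17.0.

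Shares over regions carry 95% Wilson intervals and differences of shares Newcombe intervals, computed with scipy 1.17.1, the confidence level being 95%. Differences within 5 bins of fold change (edges at quintiles of the multi-summit regions) were weighted by multi-summit regions, with intervals from binomial variances. The interval functions were tested on simulated data. No p-values were computed. Regions, gene lists and measures were chosen with earlier results of these data known. The genes named are those of the 10 strongest regions, the 5 regions with most summits and the list members at multi-summit regions. FAO3 is named by its nearest start site only. Motif matches were sought in 150 bp windows on both strands. From the lists of tomato, tobacco, rice and maize only the number of regions was taken.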

Additional observations from a re-analysis of the deposited data

How the results depend on the processing

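No paired analysis was possible because the results are counts and shares over regions of single lists, with no fit over samples. The number of multi-summit regions was 872, and 2976 with 2 or more summits, 298 with 4 or more, 38 with fold change and −log10 q of at least 5, and 1710 and 1728 by the same rule in the GLK2 lists. It was 845 without GLK1 replicate 1, the rule then being applied to GLK1 replicate 2. Recurrence of the highest summit turned round within the fold change bins in GLK2 replicate 1 (−2.07 points) and GLK2 replicate 2 (−1.57 points), and was 2.97 points (−0.32 to 6.11) in GLK2 replicate 2 with summits within 75 bp. With the roles of the GLK1 lists exchanged, the differences in recurrence were 13.5, 7.58 and 4.21 points. The difference in having 3 or more summits again kept its direction and an interval above 0 under every alternative run in all 3 lists. The promoter difference became −4.48 points (−7.90 to −1.15) when 500 bp downstream of the start were added. The motif difference was 5.54 points (0.36 to 11.1) with 4 or more summits and 3.26 points (0.07 to 6.62) without the organelle-like regions, an alternative chosen after seeing the data. It was −0.23 points without GLK1 replicate 1. It was −2.75 points for CACGTG and −6.89 points for CACGTG within the fold change bins, also chosen after seeing the data. Leaving out the organelle-like regions left 832 regions and changed no other call. Keeping nuclear chromosomes only changed nothing, since the Arabidopsis lists hold no other rows. Within a bin multi-summit regions can still be the stronger ones (median 11.8 against 10.5 in the strongest bin). The depth of each list is not given, and each group has 2 lists.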
